A study of Mus musculus with 6 samples.

Results

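The genes that carry glucose to lactate and a group of genes induced by low oxygen were followed in the midface of Tfap2Δ/NCKO mouse embryos and their controls. The group holds 33 genes: 15 glycolytic enzymes, 2 lactate dehydrogenases, 4 transporters of glucose or lactate, 2 pyruvate dehydrogenase kinases and 10 hypoxia response genes. Members were taken by symbol from a list of names, and for Aldoa, which had more than 1 row, the row with the highest mean count was used. All 33 listed genes were found among the 55401 rows that were counted. RNA came from the frontonasal and maxillary prominences at E10.5, before the midface fuses. The 3 mutants combined null with floxed alleles at both Tfap2a and Tfap2b and carried Wnt1:CRE, a transgene expressed in premigratory neural crest, so tissue outside the crest lineage kept a single intact (floxed) copy of each gene. The 3 controls were siblings lacking CRE, on a mixed background, and their alleles of Tfap2a and Tfap2b were not restricted. CRE carriage separates the groups in the same way as TFAP2 loss, and the effects of each cannot be told apart.

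Glycolysis splits glucose into pyruvate in the cytosol and yields ATP without oxygen. Lactate dehydrogenase then turns pyruvate into lactate, which restores the NAD+ that glycolysis needs, and monocarboxylate transporters carry lactate across the membrane. Under low oxygen the hypoxia-inducible factors HIF1A and EPAS1 escape prolyl hydroxylation and degradation, pair with ARNT and bind a short DNA core, raising many of these enzymes, the glucose transporters, PDK1 and a set of stress and angiogenic genes. Mouse embryos before midgestation rely on glycolysis and develop in low oxygen, and migrating cranial neural crest of the chick uses glycolysis heavily.

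The libraries held 68119668 to 77555252 counts, and 3 counts were worth 0.0387 to 0.0440 CPM. CPM is the count scaled to a common library size after trimmed-mean (TMM) adjustment, and is the unit of all levels below. Tfap2a and Tfap2b, measured over all exons and all cells of the tissue, had log2 differences of -0.15 (SE 0.07) and -0.22 (SE 0.06), mutant minus control, and neither passed the quasi-likelihood test of edgeR (adjusted p 0.684 and 0.26). Controls and mutants were littermates per the study's methods, but no label ties an embryo to a litter, and p-values measure the spread between these embryos. Control 2 stood apart. It was the Y-expressing library of the controls (148 CPM summed over 4 Y-linked genes, against 0.0802 and 0.0265 CPM in controls 1 and 3), as were the 3 mutants (149 to 156 CPM). It also had high levels of the genes described here, so the values of the members between genotypes are given with and without it.

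These genes spanned almost 3 orders of magnitude in level. Levels of different genes were compared per kilobase of merged exons, as CPM per kb. Merged exons cover all annotated transcripts of a gene, and can be longer than the transcripts present, to a degree that differs between genes. Mif, a cytokine induced by hypoxia, was highest at 588 CPM per kb, averaged over the 6 libraries. Gapdh, which oxidises glyceraldehyde-3-phosphate, followed at 518 CPM per kb, then Pkm, the pyruvate kinase of the last step, at 499.6, and Ldha, which makes lactate from pyruvate, at 438. Ranges over the 6 libraries overlapped between neighbours among these 4, so their order is not settled beyond that spread. The range of Ldha (377 to 557 CPM per kb) did not reach that of the next gene, Tpi1, the triose phosphate isomerase (229 to 336). Tpi1, Pgk1, Pgam1, Eno1, Aldoa and Ldhb made up the next level, at 193 to 259.6 CPM per kb, and Gpi1 came after a gap at 63.8. That gap depends on the exon length, as before scaling Gpi1 was at 411 CPM and Ldhb at 303 CPM. Near-identical copies held counts equal to 58.8% and 70.6% of those of Pgk1 and Eno1, so the gap between these genes and Ldha is uncertain. The isoforms of a step differed widely in level. Ldha was above Ldhb (193 CPM per kb), Aldoa (218) above Aldoc (0.66), Eno1 (222) above the neuronal enolase Eno2 (0.831), and Pfkl (44.9) above Pfkm (21.5) and Pfkp (0.84), while hexokinase Hk2 (13.4) was above Hk1 (6.003). In each of these comparisons the ranges of the 6 libraries were apart. Such ranges do not cover an error in exon length, which all libraries share. Of the transporters the glucose carrier Slc2a1 was highest at 53.1 CPM per kb. Slc2a3, also a glucose carrier, was at 14.95 and Slc16a3 at 15.06, with overlapping ranges, so which is lowest is not settled. Before scaling by length Slc2a3 was at 108 CPM and Slc16a3 at 80.1 CPM. Aldoc was the lowest member, at 2.15 CPM before scaling by length. Of 32 neighbouring pairs in the order, 23 had overlapping ranges over the 6 libraries and 9 did not.

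**Figure D1:**
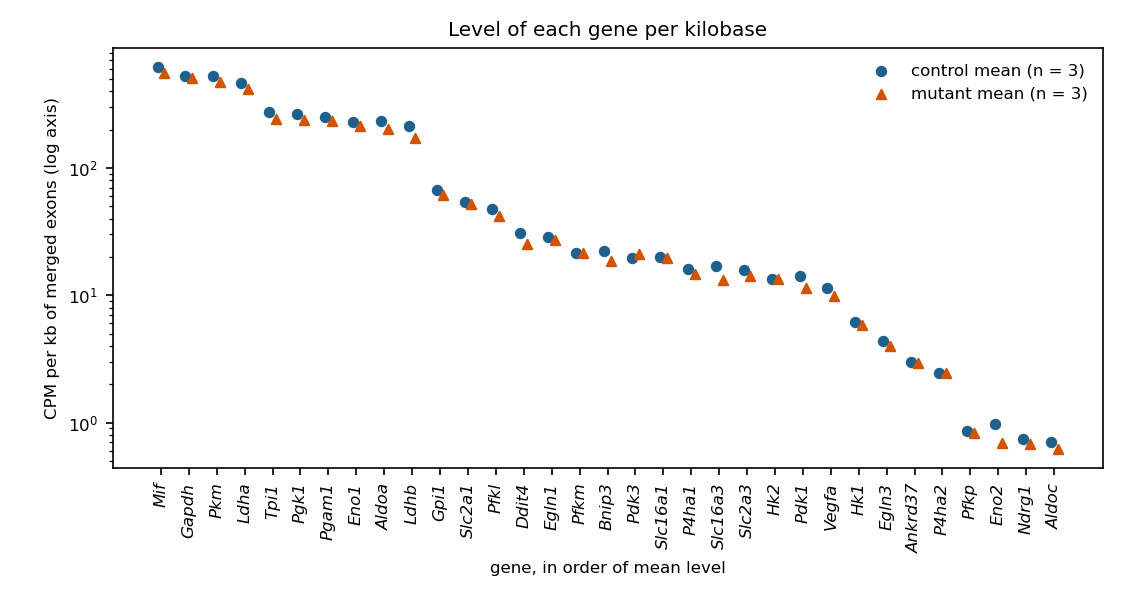
Mean level of each of the 33 genes in CPM per kb of merged exons (log axis), with controls as circles and mutants as triangles, 3 embryos each. Levels run from Mif at 588 to Aldoc at 0.66 CPM per kb as the mean of both groups, and the distance between genes is far larger than that between genotypes.

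Within this gene group 1 control embryo stood above the others. Control 2 was the highest of the 6 libraries for 26 of the 33 genes (78.8%), against 14.5% of all genes tested. The log2 level of each gene in a library was set against its mean over the 6 libraries. By that measure control 2 was above the mean for all 33 genes, by a median of 0.23 and a range of 0.03 to 0.55, while the median over all genes tested was -0.0036 in that library. For 16 genes (48.5%) control 2 was at least 1.1 times every other library, against 4.58% of all genes tested. At the other end mutant 3 was the lowest library for 18 of the 33 genes, against 16.4% of all genes tested, with a median deviation of -0.15. The remaining 4 libraries had median deviations between -0.05 and -0.03.

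The excess in control 2 was unequal across members. It was largest for Pdk1, a kinase that shuts pyruvate dehydrogenase, Bnip3, a mitophagy receptor, Slc16a3, the lactate exporter MCT4, and Ddit4, an inhibitor of mTORC1, which in control 2 were 1.57, 1.53, 1.52 and 1.51 times the mean of the other 5 libraries. Pdk1 measured 99.7, 143 and 87.3 CPM in control embryos, against 102, 81.3 and 83.5 CPM in mutant embryos. Bnip3 measured 47.1, 65.3 and 39.6 CPM in control embryos, against 45.7, 40.5 and 40.2 CPM in mutant embryos. Controls 1 and 3 lay among the mutants for Pdk1, and just above and just below all of them for Bnip3, while control 2 lay alone at the top for both. A run of enzymes followed, chosen for description after their values were seen. They were Tpi1 (1.37 times the mean of the other 5 libraries), Aldoa (1.36), Pgk1 (1.35), Eno2 (1.35), Ldha (1.34) and Pfkl (1.33). Pgk1, the X-linked phosphoglycerate kinase, measured 529, 719.7 and 522 CPM in control embryos, against 563, 543 and 508 CPM in mutant embryos. Near the other end were Pdk3 (1.02 times), P4ha2 and Slc16a1 (1.03 each), Pfkm and Hk2 (1.04 each), for which control 2 differed little from the rest. The X-linked members were Pgk1 and Pdk3, at 1.35 and 1.02 times. The other 5 libraries include the mutants, so these ratios also hold any difference between genotypes. Against the mean of controls 1 and 3, control 2 was at 1.53 for Pdk1, 1.51 for Bnip3, 1.43 for Slc16a3 and 1.47 for Ddit4. By that measure Eno2 was at 1.14 rather than 1.35 and Ldhb at 1.02 rather than 1.15. Pgk1 was at 1.37 rather than 1.35 and Pdk3 at 1.08 rather than 1.02.

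**Figure D2:**
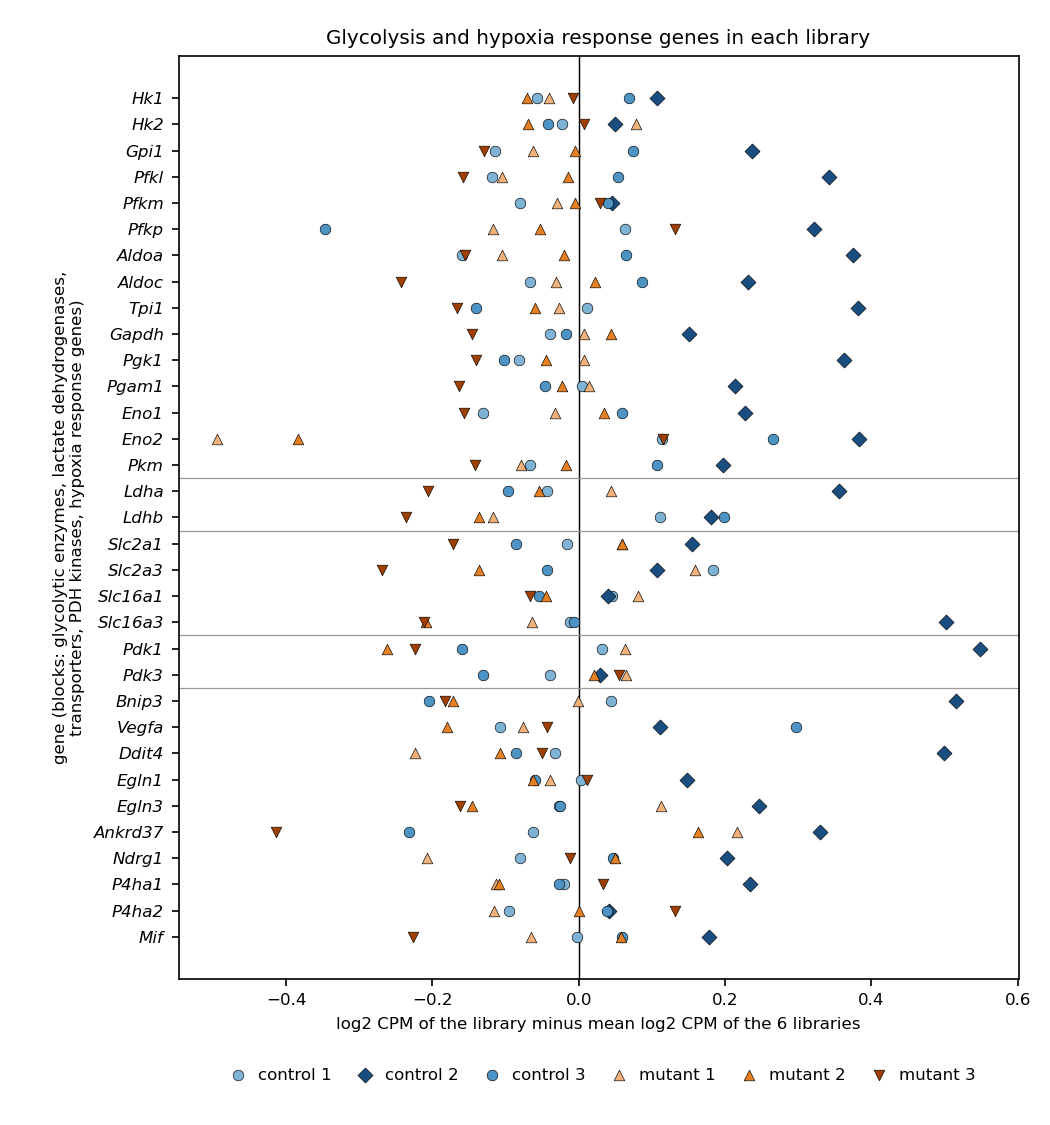
Log2 CPM of each gene in each library minus its mean over the 6 libraries, with genes grouped by role (blocks), controls as circles or diamonds and mutants as triangles. Control 2 (dark diamonds) lies to the right for all 33 genes, by 0.03 to 0.55, and mutant 3 (downward triangles) is the lowest library for 18.

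Against this background the genotypes were compared. In mutants 30 of 33 genes had lower values and 3 had higher values, against 49.7% lower among all genes tested, and the median log2 difference of the 33 was -0.13. Of the 33 genes 1 passed edgeR's test, which asked for an adjusted p below 0.05 together with a change of over 25%, and 0.326% of 19612 tested genes did so in either direction. All 33 genes had passed the filter on low counts. In 2 genes (6.06%) every mutant lay below every control, close to the 6.24% of all tested genes, and in 0 did every mutant lie above every control, against 7.15% of all tested genes. The DESeq2 Wald test also passed 1 of the 33, the same gene, where it passed 1.42% of tested genes. Without control 2, 24 of the 33 had lower values, the median log2 difference was -0.04 and 0 passed edgeR's test, where 0.314% of tested genes did. Both remaining controls expressed Xist and no Y-linked genes while the 3 mutants were the reverse, so in every value without control 2 genotype and sex cannot be told apart. At an unadjusted p below 0.05 there were 3 of the 33 with all libraries (Eno2, Ldhb and Slc16a3), against 7.95% of all tested genes, and 1 without control 2, against 8.60%, each lower in mutants. In bulk tissue, fewer cells of a type and less RNA per cell cannot be told apart.

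Ldhb, which favours the turn of lactate back to pyruvate, was the gene that passed. It lies on chromosome 6 at 142490249 to 142507957, minus strand (mm10, ENSMUSG00000030246.12). It measured 325, 341 and 345 CPM in control embryos, against 277, 274 and 256 CPM in mutant embryos. The groups did not overlap, and control 2 was in the middle of the controls. Control and mutant means were 337 ± 10.8 and 269 ± 11.7 CPM (SD, n = 3 each). The log2 difference was -0.33 (SE 0.05, 95% interval -0.44 to -0.21), at an adjusted p of 0.047 from edgeR. The fold, 1.254 control over mutant, was just above the limit. The size of the difference was almost the same without control 2 (-0.32, SE 0.06), but the adjusted p was then 0.12, and Ldhb did not pass when any other single library was left out (0.097 to 0.165). A processed pseudogene, Gm5514, matches Ldhb over 1002 bases at 98.2% identity and held a count equal to 16.3% of that of Ldhb. With the counts of the pseudogene added, Ldhb measured 362, 404 and 403 CPM in control embryos, against 329, 321 and 297 CPM in mutant embryos. The groups were still apart, with a log2 difference of -0.30 (SE 0.06) and an adjusted p of 0.11 in edgeR's test.

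Ldha, the isoform that favours lactate, behaved otherwise. It measured 1398, 1842 and 1347 CPM in control embryos, against 1485, 1387 and 1248 CPM in mutant embryos, so that control 2 was alone at the top and mutant 1 was above the other controls. Its log2 difference was -0.15 (SE 0.13, 95% interval -0.45 to 0.14) with all libraries and 0.00054 (SE 0.08, 95% interval -0.19 to 0.19) without control 2. The 2 isoforms were not tested against each other.

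Among the 15 glycolytic enzymes 14 had lower values in mutants and 1 a higher value, with a median log2 difference of -0.13, and none passed edgeR's test (lowest adjusted p 0.479) or the DESeq2 Wald test, with 1 at an unadjusted p below 0.05 in edgeR. Without control 2, 11 of the 15 were lower and the median was -0.04. In its single-cell data of sorted crest mesenchyme at a later stage, the study listed glycolysis terms among genes raised in mutants. A lactate and malate dehydrogenase domain term was listed there among lowered genes. Those mutants carried floxed alleles alone and were compared with CRE-positive heterozygotes, so the comparison is not like for like. Gapdh, often used as a reference gene, measured 2081, 2374 and 2112 CPM in control embryos, against 2148, 2203 and 1932 CPM in mutant embryos. The groups overlapped, and the log2 difference of Gapdh was -0.06 (SE 0.07), with a 95% interval of -0.23 to 0.10, or -0.0019 (SE 0.07) without control 2. Pkm measured 2378, 2856 and 2683 CPM in control embryos, against 2359, 2461 and 2256 CPM in mutant embryos. Mutant 2 was above control 1 and the other mutants were below every control, with a log2 difference of -0.16 (SE 0.07, adjusted p = 0.643), or -0.10 (SE 0.08) without control 2. Eno1, the main enolase, measured 1087, 1392 and 1239.5 CPM in control embryos, against 1164, 1219 and 1067 CPM in mutant embryos, with overlapping groups and a log2 difference of -0.11 (SE 0.09), or -0.02 (SE 0.08) without control 2.

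The step that commits glucose to glycolysis is made by phosphofructokinase. Its liver-type gene Pfkl had a log2 difference of -0.20 (SE 0.11), or -0.06 (SE 0.07) without control 2, and Pfkm and Pfkp had differences of -0.0048 (SE 0.05) and -0.05 (SE 0.16), which turned to 0.02 (SE 0.06) and 0.12 (SE 0.14) without control 2. The exons of Pfkp share 748 bases with Pitrm1 on the opposite strand, a gene with a mean count of 12802 against 824 for Pfkp, so the Pfkp value is uncertain. Hexokinases trap glucose in the cell. Hk1 had a log2 difference of -0.08 (SE 0.06) and Hk2 of 0.01 (SE 0.05), with a 95% interval for Hk2 of -0.11 to 0.13. Without control 2 these were -0.05 (SE 0.06) and 0.04 (SE 0.06). Aldoa, which splits fructose-1,6-bisphosphate, and Tpi1 had log2 differences of -0.20 (SE 0.12) and -0.18 (SE 0.13), which were -0.05 (SE 0.08) and -0.02 (SE 0.07) without control 2. The low-expressed isoform Aldoc had -0.17 (SE 0.16), the glucose-6-phosphate isomerase Gpi1 -0.14 (SE 0.08) and the phosphoglycerate mutase Pgam1 -0.12 (SE 0.08). Without control 2 these were -0.09 (SE 0.18), -0.05 (SE 0.07) and -0.04 (SE 0.07). That of Pgk1 turned from -0.13 (SE 0.12) to 0.03 (SE 0.06).

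Eno2 had the largest difference of the 33 genes. It encodes the enolase of neurons, and measured 4.13, 4.98 and 4.59 CPM in control embryos, against 2.70, 2.92 and 4.13 CPM in mutant embryos. Mutants 1 and 2 were below every control and mutant 3 lay just above the lowest control. The log2 difference was -0.49 (SE 0.18, 95% interval -0.89 to -0.09, adjusted p = 0.479 in edgeR's test) and -0.42 (SE 0.20, adjusted p = 0.625) without control 2. Of the 4 neuronal markers measured, Tubb3, Elavl3, Stmn2 and Neurod1, 4 had lower values in mutants, and none passed edgeR's test (2 were at an unadjusted p below 0.05, and 1 passed in DESeq2). Their summed level was 321 to 444 CPM in controls and 269 to 356 CPM in mutants, lowest in mutants 1 and 2 and highest in control 2. The part of neuronal cells in the Eno2 difference was not tested.

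All 4 transporters had lower values in mutants, with a median log2 difference of -0.10, and none passed edgeR's test or that of DESeq2, with 1 at an unadjusted p below 0.05 in edgeR. Slc16a3, which exports lactate from strongly glycolytic cells, measured 78.3, 112 and 78.5 CPM in control embryos, against 75.5, 68.3 and 68.2 CPM in mutant embryos. The groups did not overlap, but controls 1 and 3 were close to mutant 1 and control 2 was far above. Its log2 difference was -0.34 (SE 0.14, adjusted p = 0.618) and -0.15 (SE 0.07, adjusted p = 0.589) without control 2, where the groups still did not overlap. Slc16a1, the more widely expressed lactate carrier MCT1, had a log2 difference of -0.02 (SE 0.06), or -0.0062 (SE 0.07) without control 2. The glucose carriers Slc2a1 and Slc2a3 had differences of -0.04 (SE 0.08) and -0.16 (SE 0.11), and Slc2a3 ran from 89.3 CPM in mutant 3 to 122 CPM in control 1. Without control 2 the difference of Slc2a1 turned to 0.04 (SE 0.08) and that of Slc2a3 was -0.15 (SE 0.13).

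The pyruvate dehydrogenase kinases hold pyruvate back from the mitochondrion, and their 2 members had differences of opposite sign. Pdk1, with the values given above, had a log2 difference of -0.31 (SE 0.20, 95% interval -0.81 to 0.19, adjusted p = 0.85 in edgeR's test), or -0.07 (SE 0.11) without control 2. Pdk3 measured 50.8, 53.3 and 47.8 CPM in control embryos, against 54.7, 53.0 and 54.3 CPM in mutant embryos, where mutant 2 was below control 2. Its log2 difference of 0.09 (SE 0.06, adjusted p = 0.818) was the most positive of the 33 genes. Without control 2, every mutant was above both remaining controls, with a log2 difference of 0.13 (SE 0.06, adjusted p = 0.622). Pdk3 is X-linked, and these 2 controls were the Xist-expressing libraries, so genotype and sex cannot be told apart here.

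Of the 10 hypoxia response genes 9 had lower values in mutants and 1 a higher value, with a median log2 difference of -0.13, and none passed edgeR's test (lowest adjusted p 0.677) or that of DESeq2, or had an unadjusted p below 0.05. Without control 2, 8 of 10 were lower and the median was -0.04. Ddit4 measured 47.5, 68.7 and 45.7 CPM in control embryos, against 41.6, 45.1 and 46.9 CPM in mutant embryos. Controls 1 and 3 overlapped the mutants, and the log2 difference of -0.28 (SE 0.16, adjusted p = 0.805) became -0.07 (SE 0.07) without control 2. Bnip3 showed the same change, from -0.27 (SE 0.18) to -0.04 (SE 0.09). Vegfa, the main angiogenic ligand, did not: it measured 42.0, 48.9 and 55.6 CPM in control embryos, against 42.9, 40.0 and 43.9 CPM in mutant embryos, with control 3 the highest. Its log2 difference of -0.21 (SE 0.10, adjusted p = 0.677) was also -0.21 (SE 0.11) without control 2. The prolyl hydroxylases Egln1 and Egln3, which mark HIF proteins for degradation and are themselves HIF targets, had log2 differences of -0.06 (SE 0.06) and -0.13 (SE 0.11), or -0.0024 (SE 0.06) and -0.03 (SE 0.12) without control 2. The collagen prolyl hydroxylase subunits P4ha1 and P4ha2 had -0.13 (SE 0.08) and 0.01 (SE 0.09), or -0.04 (SE 0.07) and 0.03 (SE 0.10) without it. Mif had -0.15 (SE 0.08), and the low-expressed Ankrd37 and Ndrg1 had -0.02 (SE 0.20) and -0.11 (SE 0.13). Without control 2 Mif was at -0.10 (SE 0.08), Ndrg1 at -0.04 (SE 0.14) and Ankrd37 turned to 0.16 (SE 0.20). Of these Ankrd37, at 3.37 to 5.66 CPM, had the widest interval (-0.48 to 0.45).

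**Figure D3:**
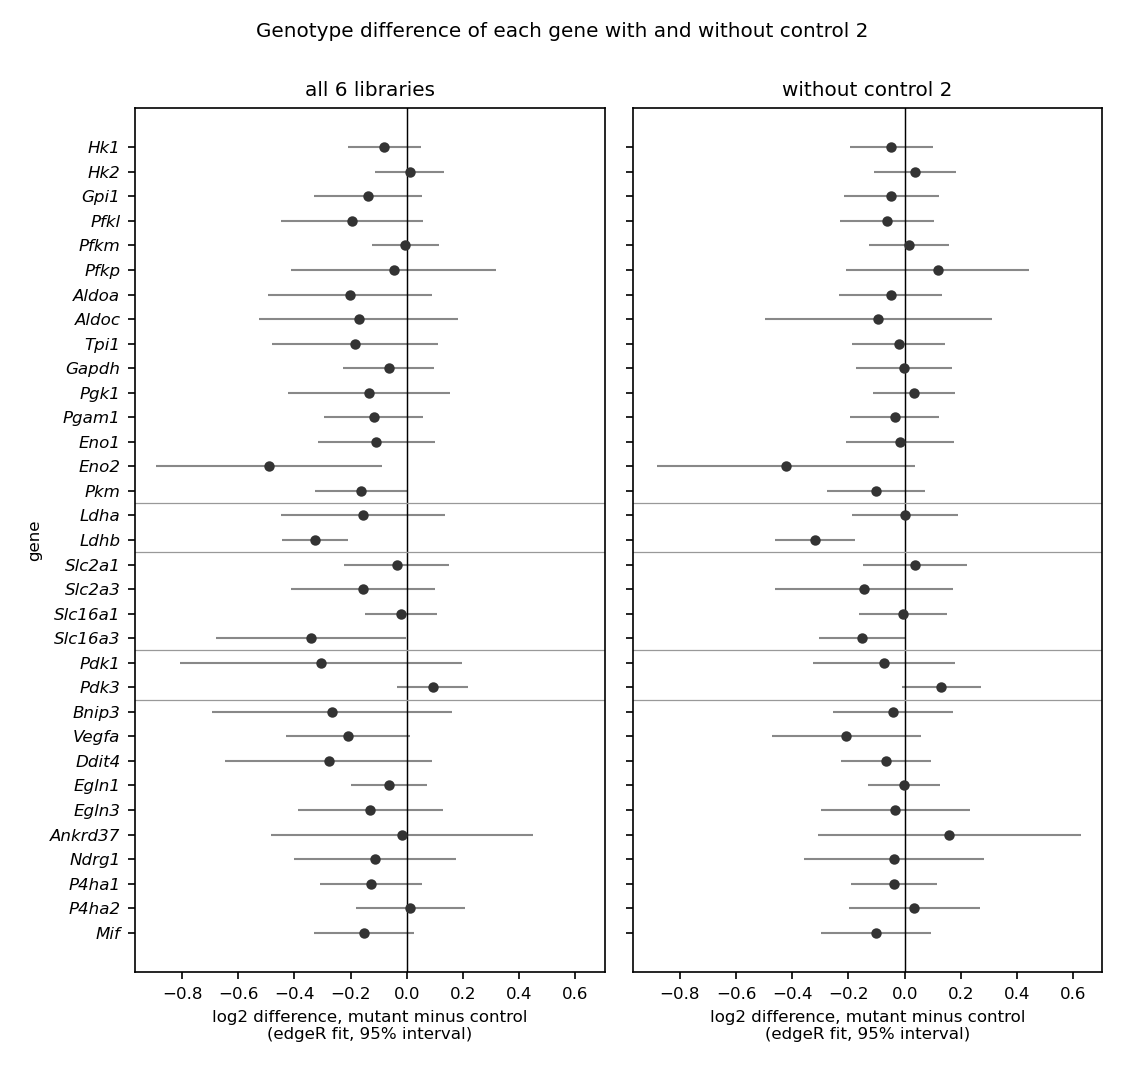
Log2 difference, mutant minus control, of each gene with its 95% interval from edgeR, fitted to all 6 libraries (left) and without control 2 (right). With all libraries 30 of 33 points lie below 0 with a median of -0.13, and without control 2 24 do with a median of -0.04, while Ldhb stays at -0.33 and -0.32.

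Control 2 was the single Y-expressing control, so a fit with Y-linked expression as a covariate set mainly control 2 against the mutants. In that fit 32 of 33 genes had lower values in mutants with a median log2 difference of -0.30, and 2 of 33 passed where 0.189% of tested genes did. They were Slc16a3 (-0.67, SE 0.08, adjusted p = 0.0194 in edgeR's test) and Ddit4 (-0.63, SE 0.09, adjusted p = 0.0391). Each had its highest value in control 2, at 112 and 68.7 CPM. Over 15 alternative fits the adjusted p ran from 0.0194 to 0.857 for Slc16a3 and from 0.0391 to 0.999 for Ddit4. Ldhb did not pass with the covariate (-0.34, SE 0.08, adjusted p = 0.23), within a range of 7.70e-07 to 0.29. When control 2 alone was set against the 3 mutants, in a fit whose spread comes from the mutants, the median was -0.31 and 0 of the 33 passed edgeR's test, where 0.16% of tested genes did, while 20 were at an unadjusted p below 0.05, against 5.90% of all tested genes. The other Y-expressing libraries did not share the high levels of control 2. They were all mutants, so here genotype and features of control 2 cannot be told apart. Libraries with and without Y-linked expression occurred together in the controls alone, with 1 library on one side, so sex and other features of control 2 cannot be told apart.

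The hypoxia response element recognised by HIF complexes has the core ACGTG or GCGTG, and these letters were counted on both strands in the promoters, here 250 bases before to 50 after each RefSeq start (GRCm38.p6). Windows were given for 31 of the 33 genes (44 windows), and not for Ndrg1 and Slc2a3. ACGTG was in a window of 23 of the 31 genes (74.2%), against 21.8% of all genes with windows. Counted by window it was in 25 of 44 (56.8%), against 19.6% of 32851 windows, and ACGTG or GCGTG was in 79.5% against 43.8%. A match is a description and not a binding site. The group was listed in part for its response to low oxygen, so a high share of this core follows in part from the choice of genes. The promoters compared were not matched for base composition. The 23 genes with ACGTG had a median ratio of control 2 to the mean of the other 5 libraries of 1.18 (1.02 to 1.53). For the 8 without it the median was 1.31 (1.15 to 1.57). Of these 8, Pdk1, Pfkp, Eno1, Pfkl and Ldhb held GCGTG, while Tpi1, Eno2 and Gpi1 held neither core. The split thus does not divide genes by the whole element, and a link between the core and the excess in control 2 was not tested. The ratios also hold any difference between genotypes, as the other 5 libraries include the mutants. Against controls 1 and 3 alone, Ldhb was at 1.02 and Eno2 at 1.14.

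Windows of 7 genes are shown 5′ to 3′ on the coding strand, with both cores and their reverse complements (CACGT and CACGC) in capitals. A run CACGTG reads as ACGTG on either strand and counts as 2 matches. Ldha (chr7:46845554-46845853, plus strand) is shown as the member with most ACGTG matches (5, and 7 with GCGTG), and Pgk1 (chrX:106186850-106187149, plus) as an enzyme high in control 2 with 2. Bnip3 (chr7:138909457-138909756, minus), Slc16a3 (chr11:120948817-120949116, plus) and Ddit4 (chr10:59951721-59952020, minus) were among the 4 highest in control 2, and had 2, 2 and 1 matches to ACGTG. Pdk1 (chr2:71872974-71873273, plus), the highest of all in control 2, had none and 2 to GCGTG. Ldhb (chr6:142507908-142508207, minus), the gene that passed the genotype test, had none and 1 to GCGTG.
Ldha: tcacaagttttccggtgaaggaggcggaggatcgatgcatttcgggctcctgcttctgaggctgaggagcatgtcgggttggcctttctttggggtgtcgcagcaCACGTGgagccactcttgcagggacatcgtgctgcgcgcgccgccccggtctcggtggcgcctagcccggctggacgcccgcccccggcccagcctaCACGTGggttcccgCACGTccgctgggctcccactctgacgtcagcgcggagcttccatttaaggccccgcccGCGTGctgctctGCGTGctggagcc
Pgk1: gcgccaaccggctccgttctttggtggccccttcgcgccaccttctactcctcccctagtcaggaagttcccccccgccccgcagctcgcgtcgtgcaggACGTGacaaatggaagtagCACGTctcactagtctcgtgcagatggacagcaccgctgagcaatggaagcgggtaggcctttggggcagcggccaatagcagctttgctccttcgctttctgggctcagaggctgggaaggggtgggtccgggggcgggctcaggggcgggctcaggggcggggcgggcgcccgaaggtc
Bnip3: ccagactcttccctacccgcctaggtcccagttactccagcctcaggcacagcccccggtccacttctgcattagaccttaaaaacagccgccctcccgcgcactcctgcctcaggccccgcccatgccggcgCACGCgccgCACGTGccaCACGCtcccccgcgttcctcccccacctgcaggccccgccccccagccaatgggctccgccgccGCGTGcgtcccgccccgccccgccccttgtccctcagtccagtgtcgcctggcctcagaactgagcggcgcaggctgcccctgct
Slc16a3: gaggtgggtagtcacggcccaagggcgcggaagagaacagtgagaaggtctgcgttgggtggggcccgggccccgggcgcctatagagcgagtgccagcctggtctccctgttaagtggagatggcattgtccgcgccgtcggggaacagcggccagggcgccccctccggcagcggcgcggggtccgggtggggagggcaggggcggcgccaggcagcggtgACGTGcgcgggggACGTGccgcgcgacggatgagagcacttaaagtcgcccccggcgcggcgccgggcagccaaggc
Ddit4: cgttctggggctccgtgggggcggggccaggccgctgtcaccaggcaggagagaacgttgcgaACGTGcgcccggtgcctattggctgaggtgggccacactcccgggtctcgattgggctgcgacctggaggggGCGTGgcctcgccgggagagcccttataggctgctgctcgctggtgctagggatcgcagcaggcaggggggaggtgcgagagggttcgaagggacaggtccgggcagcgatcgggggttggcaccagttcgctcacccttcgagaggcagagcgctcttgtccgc
Pdk1: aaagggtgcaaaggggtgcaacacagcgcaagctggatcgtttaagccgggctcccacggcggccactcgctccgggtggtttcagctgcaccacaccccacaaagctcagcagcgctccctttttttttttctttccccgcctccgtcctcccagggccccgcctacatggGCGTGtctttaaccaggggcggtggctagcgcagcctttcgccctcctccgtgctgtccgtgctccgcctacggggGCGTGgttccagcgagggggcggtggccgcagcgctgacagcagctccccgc
Ldhb: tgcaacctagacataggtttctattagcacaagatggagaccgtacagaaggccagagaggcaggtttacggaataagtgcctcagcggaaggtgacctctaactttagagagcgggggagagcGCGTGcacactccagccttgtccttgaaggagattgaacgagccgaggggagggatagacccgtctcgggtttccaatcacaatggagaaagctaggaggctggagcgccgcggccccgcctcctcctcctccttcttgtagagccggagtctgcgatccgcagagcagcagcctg

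Genes upstream of and beside this group were read from lists of related pathways, and none of those named in this and the next paragraph passed in edgeR or DESeq2. Of 15 genes of the HIF machinery, which sense oxygen and form the HIF complexes, 8 had lower and 7 higher values in mutants, 0 had an unadjusted p below 0.05 in edgeR, and the median log2 difference was -0.0022. Without control 2, 5 of the 15 were lower, with a median of 0.02. Control 2 was highest in 2 of the 15. Hif1a measured 169, 177 and 174 CPM in control embryos, against 179, 177 and 181 CPM in mutant embryos (log2 difference 0.05, SE 0.04), so its RNA in control 2 was within the range of the mutants. Of 29 tested HIF targets outside the group, 18 were lower and 11 higher with a median of -0.02 and 0 at an unadjusted p below 0.05. Without control 2 the balance turned, with 10 of the 29 lower and a median of 0.04. Control 2 was the highest library for 15 of the 29, with a median deviation of 0.11. A further list held glycolysis enzymes, transporters and pyruvate dehydrogenase kinases outside the group, many of them isoforms of other tissues. Of its 19 tested genes 11 were lower and 8 higher, with a median of -0.07 and 3 at an unadjusted p below 0.05. Control 2 was highest in 5. These include Eno1b, a near-identical copy of the member Eno1 with a count equal to 44.5% of that of Eno1, so it is not separate from the group. Without control 2, 11 of the 19 were again lower, with a median of -0.03. Pgk2 and Slc2a2 were at 0 counts in all 6 libraries.

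Neighbouring metabolic routes were read against the 14.5% of all tested genes for which control 2 was the highest library. It was highest for 0 of 7 pentose phosphate genes (median log2 difference between genotypes -0.01), 4 of 22 genes of the TCA cycle and pyruvate entry (0.02) and 0 of 8 genes of the mitochondrial genome (-0.07). Among stress lists it was highest for 1 of 13 ATF4 targets (median log2 difference 0.06) and 1 of 12 immediate early and heat shock genes (0.03). At an unadjusted p below 0.05 between genotypes there was 1 gene each in the pentose phosphate, ATF4 and heat shock lists and 0 in the others. Without control 2 the median log2 difference was 0.01 for the pentose phosphate list, 0.04 for the TCA cycle, -0.11 for the mitochondrial genome, 0.05 for ATF4 targets and 0.0033 for immediate early and heat shock genes. In control 2 the median deviations from the mean of the 6 libraries were 0.01 for pentose phosphate, 0.02 for the TCA cycle, -0.09 for ATF4 targets and -0.14 for immediate early and heat shock genes, against 0.23 for the 33 genes.

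Markers of other cell types also differed in control 2. The 6 erythroid markers summed to 1922 CPM in control 2, the lowest library, against 4329 and 3324 CPM in controls 1 and 3 and 2331 to 3405 CPM in mutants. Between genotypes 5 of 6 were lower, none passed in edgeR or DESeq2 and 0 had an unadjusted p below 0.05. Neuronal markers summed to 444 CPM in control 2, the highest library, and control 2 was highest for 3 of the 4. The 5 facial mesenchyme markers Prrx1, Prrx2, Twist1, Pdgfra and Msx1, which define the tissue, were detected in each library and summed to 637 to 679 CPM in controls, highest in control 2, and to 532 to 586 CPM in mutants. Their median deviations in controls 1, 2 and 3 were 0.10, 0.22 and 0.08, against -0.03, 0.23 and -0.03 for the 33 genes. In mutants 1, 2 and 3 they were -0.21, -0.05 and -0.15, against -0.03, -0.05 and -0.15 for the 33 genes. The marker value in control 2 thus includes a difference between genotypes that controls 1 and 3 share, unlike that of the 33 genes. Between genotypes 5 of 5 were lower and none passed in edgeR, with 3 at an unadjusted p below 0.05 and 1 that passed in DESeq2. The 6 macrophage markers were all higher in mutants, at 19.9 to 28.2 CPM summed in controls and 35.4 to 51.6 CPM in mutants, with 6 of 6 at an unadjusted p below 0.05. Of these C1qb passed in edgeR (adjusted p 0.0423) and 4 passed in DESeq2. Endothelial markers summed to 191 to 198 CPM in controls and 207 to 226 CPM in mutants, with 4 of 4 higher. Neuroepithelial markers, 3 of 3 higher, summed to 160.3 to 168 CPM in controls and 174 to 193 CPM in mutants. Surface ectoderm markers, 4 of 5 higher, summed to 187 to 205 and 202 to 246 CPM, and muscle markers, 4 of 4 higher, to 2.31 to 5.07 and 4.26 to 7.08 CPM. None of these 4 lists had a gene that passed in edgeR or DESeq2, with 2, 2, 3 and 2 genes at an unadjusted p below 0.05. No marker in these lists was at 0 in all libraries. The part of each cell type in the levels of the glycolysis and hypoxia genes was not tested.

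**Figure D4:**
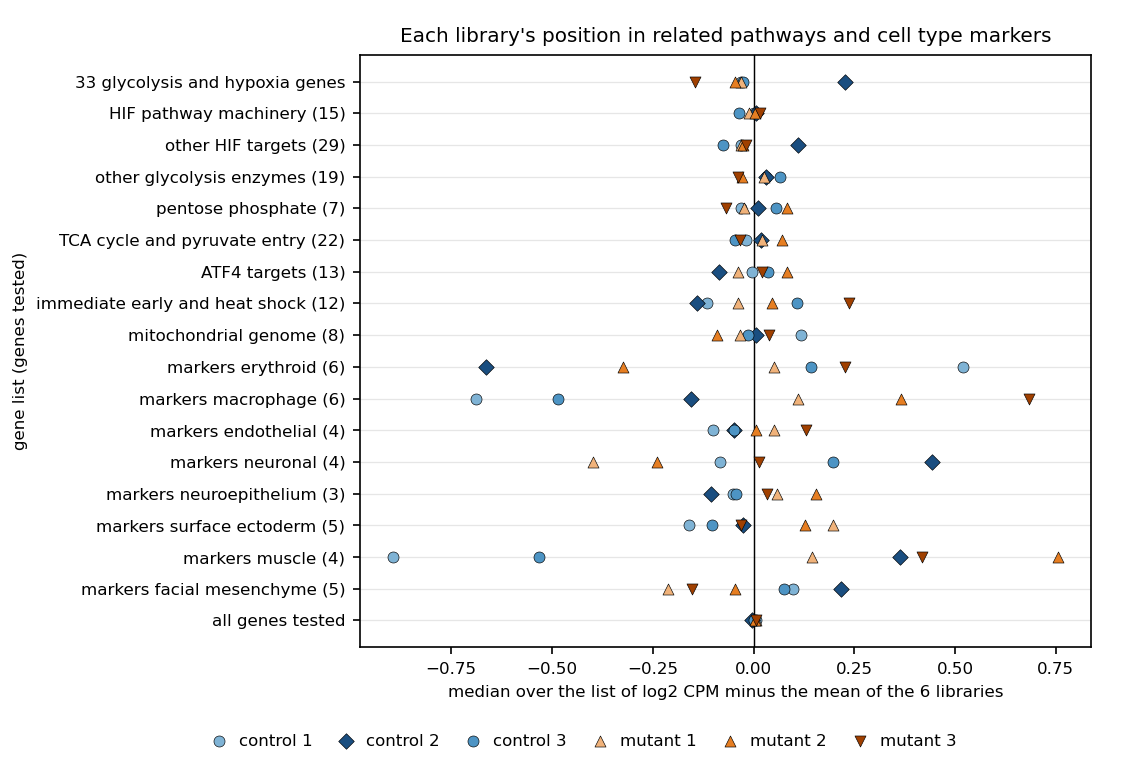
Median over each gene list of the log2 CPM of a library minus the mean of the 6 libraries, with the number of genes tested in brackets. Control 2 (dark diamonds) lies at 0.23 for the 33 glycolysis and hypoxia genes and 0.11 for other HIF targets, and near 0 for the HIF machinery and the TCA cycle. Among cell type markers it lies at 0.44 for neuronal, 0.36 for muscle and 0.22 for facial mesenchyme markers. It lies at -0.66 for erythroid, -0.16 for macrophage, -0.10 for neuroepithelial, -0.05 for endothelial and -0.03 for surface ectoderm markers.

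Glycolytic genes have many processed copies in the genome, and the counting could share reads between them. Of the 33 genes, 11 had near-identical copies, matched over at least 150 bases at 98% identity or more. The counts of the copies came to 70.6% of the member's count for Eno1 (2 copies), 58.8% for Pgk1 (3 copies), 22.4% for Gapdh (80 copies), 20.3% for Pgam1, 17.5% for Bnip3, 16.3% for Ldhb, 5.71% for Mif and at most 2.06% for Pkm, Tpi1, Gpi1 and Ldha. Levels of these genes are uncertain to that extent. With the copies added, which was tried after the data were seen, 30 of 33 genes were again lower with a median log2 difference of -0.14, and 0 passed edgeR's test, where 0.312% of tested genes did, while 2 were at an unadjusted p below 0.05, against 7.89% of all tested genes. Exons of Gpi1, Pkm, Bnip3, Ndrg1 and Ankrd37 overlap other annotated genes by 349 to 767 bases.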

How the data were processed

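Per the labels and the study's methods, RNA of 3 control and 3 Tfap2Δ/NCKO embryos (frontonasal and maxillary prominences, E10.5) was read as stranded poly(A) libraries. The authors mapped reads to mm10 with STAR, quantified them with StringTie and made the deposited estimated counts with the prepDE script of StringTie, which gives whole numbers. No strand option is listed. The sources used here give neither versions, nor the annotation release, nor the read length set in prepDE. Columns with the authors' DESeq2 results, and a second deposited table of their kallisto and sleuth effects and p-values, were not used.

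The estimated counts were used as deposited. Genes were filtered by group (filterByExpr), scaled by TMM (factors 0.992 to 1.01) and tested between genotypes in edgeR 4.0.16 (R 4.3.3, quasi-likelihood F test, robust, no covariate). Benjamini-Hochberg adjustment ran over the 19612 genes tested of 55401. A gene passed with an adjusted p below 0.05 if it also changed by over 25% (a fold limit taken from the study). The SE is the absolute log2 difference divided by the square root of F. The fit was tested on simulated counts. Fewer genes had a count of 3 (510 in control 1) than of 2 (1270) or 4 (711), and so in each library, for which reason counts divided by 2 were also tested. A chi-square comparison gave 17.3 to 36.0 per gene over 15 pairs of libraries, so none looked deposited more than once. Intervals and floors cover counting error or the spread of these embryos only.

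Per-kb levels use merged exons of GENCODE M21 (mm10), which held 55141 of the 55401 row IDs (99.5%, ignoring version). Near copies were found with blastn 2.17.0. Promoter windows came from the RefSeq table. Members and lists were chosen with earlier results of these data known. The genes given in every library were the 4 with the highest mean CPM, those called or not overlapping and the 5 with the largest absolute difference. Bnip3, Pgk1, Vegfa, Pdk3 and Hif1a were added after their values were seen. Alternatives were DESeq2 1.42.0 (size factors, Wald test), other count filters, counts divided by 2, the replicate number as a block, a Y-linked covariate, the Y-expressing libraries alone, each library left out and, chosen after seeing the data, near copies added.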

Additional observations from a re-analysis of the deposited data

How the results depend on the processing

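Of 495 single-gene values (33 genes under 15 alternatives) 463 kept their direction and their side of the threshold, 21 changed sign in 9 genes, 9 no longer passed and 2 newly passed. The 9 were all Ldhb, which passed with DESeq2 size factors, no filter on low counts, at least 1 CPM in all libraries, the DESeq2 Wald test, counts divided by 2 and the replicate block. The 2 were Slc16a3 and Ddit4 with the Y-linked covariate. With 1 library left out, log2 differences ran from -0.027 to 0.048 for Hk2, -0.054 to 0.071 for P4ha2, -0.053 to 0.016 for Pfkm, -0.22 to 0.12 for Pfkp, -0.22 to 0.033 for Pgk1, -0.25 to 0.00054 for Ldha, -0.094 to 0.036 for Slc2a1, -0.068 to 0.0068 for Slc16a1 and -0.14 to 0.16 for Ankrd37. With the Y-linked covariate Hk2 was at -0.045 and P4ha2 at -0.032, and in the Y-expressing libraries alone at -0.058 and -0.047. Genes called numbered 23 to 63 with 1 library left out (41 and 25 when controls 1 and 3 were left out, 23 and 26 for mutants 2 and 3), 279 in the DESeq2 Wald test, 119 with the replicate block, 37 with the Y-linked covariate and 33 in the Y-expressing libraries alone. Of the 33 genes, 0 passed in edgeR with any 1 library left out (1 to 9 at an unadjusted p below 0.05, against 6.46% to 8.60% of all tested genes), in the Y-expressing libraries alone or with near copies added, and 2 passed with the covariate. Their median log2 difference was -0.20 without control 1, -0.04 without control 2, -0.30 with the covariate and -0.31 in the Y-expressing libraries alone. The cause of these shifts was not tested. No label says whether the replicate numbers pair littermates. Same-numbered deviations correlated at 0.03, 0.11 and 0.13, and each library correlated best with its own number. Pairing is thus not excluded, and the main fit does not use it. With the replicate block 30 of 33 genes were lower, the median was -0.13 and Ldhb was the gene that passed (adjusted p = 0.0411). In that edgeR fit 119 genes were called, against 64 in the main fit. There 7 of the 33 were at an unadjusted p below 0.05, each lower in mutants, against 11.1% of all tested genes. With 3 embryos per group, an exact permutation test of a single value could not go below 0.1.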
